A study of Mus musculus with 6 samples.

Results

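Blood vessels of the lower jaw were followed through 10 endothelial genes in RNA from the distal mandible, which forms the front of the lower jaw, of single mouse embryos at E10.75, in days of embryonic development. The members were chosen by gene symbol (Pecam1, Cdh5, Kdr, Flt1, Tek, Emcn, Cldn5, Sox17, Sox18 and Adgrl4), with earlier results of these data known. All 10 were found, each on 1 row, among 21827 listed genes. The series has 6 libraries, with 1 embryo labelled mutant and 1 labelled control from each of 3 litters. Embryos labelled mutant carry Msx1f/f, Msx2f/f, Rosa26mTmG/+ and Hand2-Cre, and those labelled control carry Msx1f/+, Msx2f/f, Rosa26mTmG/+ and Hand2-Cre. Both labels therefore share the Cre driver, the reporter allele and homozygous floxed Msx2, and they differ in the dose of floxed Msx1. No embryo with intact Msx genes is among them. The Cre is driven by Hand2 regulatory sequence, which is active in the mesenchyme of the distal arch. Tissue was dissected by its green fluorescence and not sorted into cells, so each library mixes mesenchyme, epithelium, vessels and blood.

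Endothelial cells line the vessels and, in the pharyngeal arches, arise largely from mesoderm and not from the neural crest that forms most of the jaw mesenchyme. They grow in response to VEGF, secreted by the surrounding tissue and read by receptor tyrosine kinases, and to angiopoietins. They are held together by VE-cadherin and claudin junctions. Factors of the ETS and SOXF families maintain their identity.

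The values are TPM, which scale transcript abundance to an equal total in each library, so that levels of different genes can be compared per transcript length. Msx1 went against the labels in 4 of the 6 libraries. It stood at 1.90 TPM in the labelled mutant and 84.1 TPM in the labelled control of litter 1, but at 78.8 and 2.61 TPM for litter 2 and 73.3 and 1.99 TPM for litter 3, in the same order. Every litter thus held 1 library with Msx1 under 10 TPM and 1 over 50 TPM, called Msx1-low and Msx1-high below. Msx1-low are the labelled mutant of litter 1 and the labelled controls of litters 2 and 3. Because Msx1 is a measured value, the Msx1-low and Msx1-high littermates are set side by side and no averaged group or test is built on them. Msx2 was at 4.22 to 9.62 TPM and Hand2 at 210.0 to 261 TPM. Genes at 1 TPM or more numbered 11929 to 12132 per library, and the sequencing depth of each library is unknown.

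The summed endothelial share of the RNA was nearly the same in all 6 libraries, while 2 low members, Adgrl4 and Sox17, were uneven. The 9 markers other than Adgrl4 together held 0.0133% to 0.0150% of the listed TPM, a 1.13-fold range. Sox17, 1 of those 9, ranged 4.54-fold, from 0.749 to 3.40 TPM. Adgrl4 ranged 9.55-fold, from 0.453 to 4.32 TPM. It was higher in the Msx1-low library of every litter, and it was the only member called in the comparison table that the authors deposited.

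**Figure D1:**
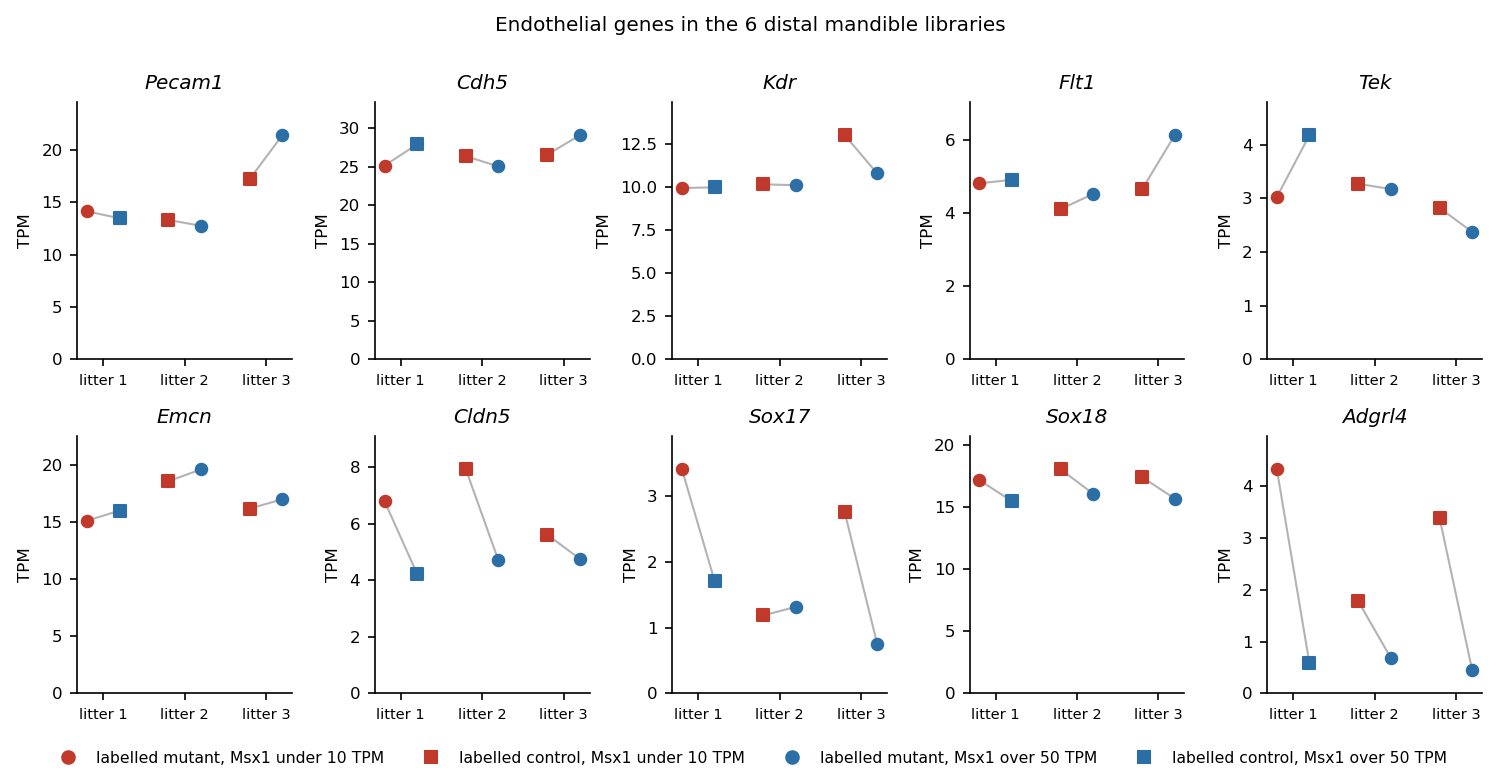
TPM of each of the 10 endothelial genes (vertical axes, each from 0) in the 6 libraries, placed by litter with a grey line joining littermates; circles are libraries labelled mutant, squares those labelled control, red is Msx1 under 10 TPM and blue Msx1 over 50 TPM. Cdh5 and Sox18 keep nearly one level throughout, whereas Adgrl4 is at 1.78 to 4.32 TPM in the red points and 0.453 to 0.686 TPM in the blue.

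Summed over the 9 markers, the labelled mutant and labelled control libraries held 0.0135% and 0.0137% of the listed TPM in litter 1, 0.0133% and 0.0140% for litter 2 and 0.0150% and 0.0147% for litter 3. Both libraries of litter 3 stood above the other 4, and the labels overlapped. Over all 10 genes the mean for libraries labelled mutant was 0.0142% ± 0.00082 (SD, n = 3) and that for libraries labelled control 0.0144% ± 0.00071 (SD, n = 3), so the means differed by less than the spread between embryos. Within litters the Msx1-low library held 0.991, 1.05 and 0.979 times the 9-marker share of its littermate. In bulk tissue fewer endothelial cells and less RNA per cell cannot be told apart.

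Other cell types varied more than endothelium in some libraries. The 13 red blood cell genes took up 3.07% of the listed TPM in the labelled mutant of litter 1, against 0.963% to 1.32% elsewhere. Platelet lineage genes held 0.00241% to 0.00820% and macrophage genes 0.00246% to 0.00415%, with 3 to 5 of 6 and 6 to 9 of 11 genes at 1 TPM or more. Mural cell genes, which mark the pericytes and smooth muscle around vessels, held 0.0104% to 0.0146%. All 9 epithelial genes reached 1 TPM in every library and held 0.0196% to 0.0230%, and the 8 arch mesenchyme genes held 0.107% to 0.114%. Mitochondrial transcripts took 8.03% in the labelled control of litter 1 and 6.02% to 6.51% elsewhere.

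**Figure D2:**
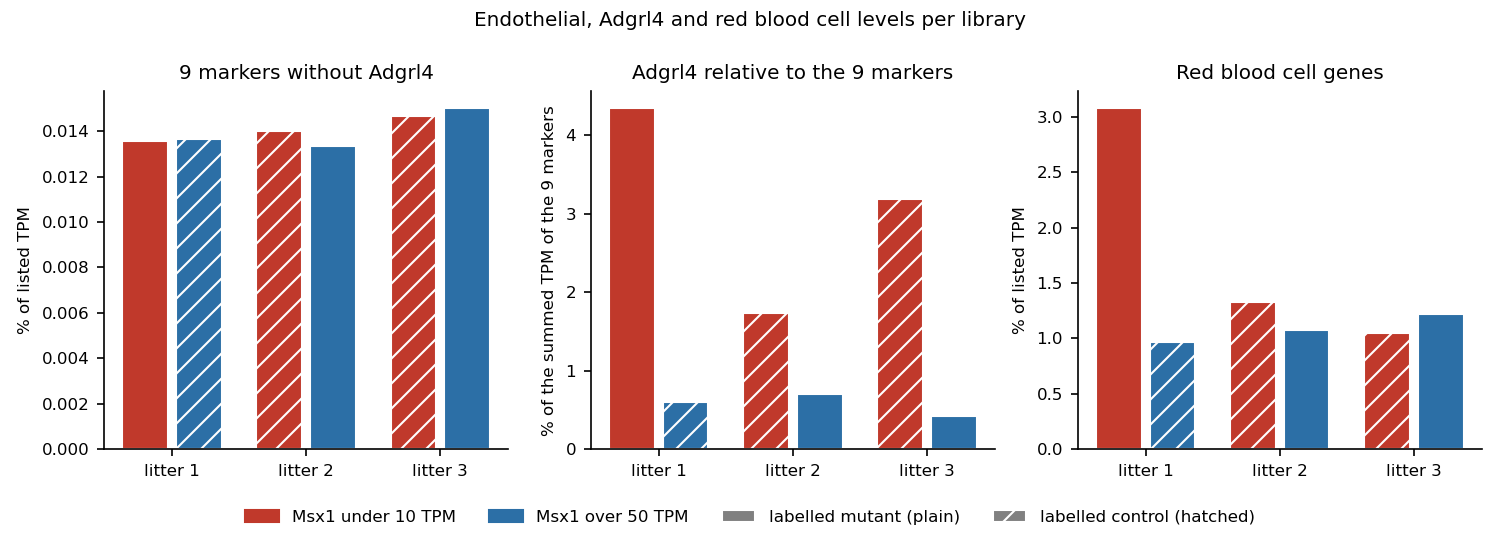
Bars from 0 show, for each library by litter, the 9 endothelial markers without Adgrl4 as % of listed TPM (left), Adgrl4 as % of the summed TPM of those 9 (middle) and 13 red blood cell genes as % of listed TPM (right); red is Msx1 under 10 TPM, blue Msx1 over 50 TPM, and hatching marks libraries labelled control. The left bars lie between 0.0133% and 0.0150%, the middle bars are taller in red in each litter, and the right panel has 1 tall bar, 3.07%, in litter 1.

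Of the adhesion and surface genes, Cdh5 was the most abundant member and Cldn5 the least abundant of the group. Cdh5, which encodes VE-cadherin, the adhesion molecule of endothelial junctions (chromosome 8, 104101625 to 104144511, GRCm38), reached 25.1 and 27.9 TPM in the labelled mutant and labelled control of litter 1, 25.0 and 26.4 TPM in litter 2, and 29.1 and 26.6 TPM in litter 3. All 6 values exceeded those of every other member, and their coefficient of variation was 5.92%. Among 3678 tested genes with a mean of 10 to 30 TPM the median coefficient was 11.9%, and 91.7% of them varied more than Cdh5.

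Pecam1, an adhesion molecule of endothelial contacts that platelets and leukocytes also carry (chromosome 11, 106654217 to 106750628), was at 14.1 and 13.5 TPM in the labelled mutant and labelled control of litter 1, 12.8 and 13.3 TPM in litter 2, and 21.4 and 17.3 TPM in litter 3. Litter 3 stood above the others in both libraries. Its highest library, the labelled mutant of litter 3, also had the highest platelet lineage share (0.00820%), whose part in the Pecam1 level was not tested.

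Cldn5 encodes the tight junction protein claudin-5 (chromosome 16, 18776847 to 18778262). It was at 6.81 and 4.24 TPM in the labelled mutant and labelled control of litter 1, 4.71 and 7.93 TPM in litter 2, and 4.77 and 5.62 TPM in litter 3. All 3 Msx1-low libraries, at 5.62 to 7.93 TPM, stood above the Msx1-high ones, at 4.24 to 4.77 TPM. How many of all tested genes separate in this way was not counted. Within litters the ratio was 1.61, 1.68 and 1.18. The authors' deposited table puts Cldn5 at 0.56 ± 0.57 (log2 fold change ± standard error, as in all values quoted from it; adjusted p = 1.00), from a mean of 36.7 normalised counts.

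Emcn encodes endomucin, a surface sialomucin of capillary and venous endothelium (chromosome 3, 137341067 to 137432185). Its levels were 15.1 and 16.0 TPM in litter 1, 19.6 and 18.5 TPM in litter 2, and 17.0 and 16.2 TPM in litter 3, labelled mutant first. Litter 2 was highest, and littermates stayed close, at ratios of 0.944 to 0.952 between Msx1-low and Msx1-high.

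The receptor genes followed no common order over the libraries. Kdr, the main signalling receptor for VEGF-A (chromosome 5, 75932827 to 75978458), was at 9.96 and 9.99 TPM in the labelled mutant and labelled control of litter 1, 10.1 and 10.2 TPM in litter 2, and 10.80 and 13.0 TPM in litter 3. It was flat apart from the labelled control of litter 3. Flt1, a VEGF receptor that also acts as a decoy for the ligand (chromosome 5, 147561604 to 147726011), was at 4.81 and 4.91 TPM in litter 1, 4.53 and 4.11 TPM in litter 2, and 6.13 and 4.65 TPM in litter 3, in that order of labels. Its highest value was in the labelled mutant of litter 3, the library that was also highest for Pecam1 and Cdh5.

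Tek, the angiopoietin receptor gene (chromosome 4, 94739289 to 94874976), was at 3.02 and 4.17 TPM in the labelled mutant and labelled control of litter 1, 3.17 and 3.27 TPM in litter 2, and 2.37 and 2.82 TPM in litter 3. The labelled control was above the labelled mutant in each litter, although the 2 labels overlapped over all litters.

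The 2 SOXF transcription factor genes behaved differently. Sox18, active in early vessels and in lymphatic specification (chromosome 2, 181669836 to 181671640), was at 17.2 and 15.5 TPM in litter 1, 16.1 and 18.0 TPM in litter 2, and 15.7 and 17.4 TPM in litter 3, labelled mutant first. The Msx1-low libraries were at 17.2 to 18.0 TPM and the Msx1-high ones at 15.5 to 16.1 TPM. Ratios within litters were small, at 1.11, 1.12 and 1.11, and the share of all tested genes with such a separation was not counted. The authors' deposited table has Sox18 at 0.16 ± 0.31 (adjusted p = 1.00).

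Sox17, which acts in arterial endothelium and also in endoderm (chromosome 1, 4490931 to 4497354), was low and uneven, with a coefficient of variation of 54.9%. It was at 3.40 and 1.71 TPM in the labelled mutant and labelled control of litter 1, 1.31 and 1.18 TPM in litter 2, and 0.749 and 2.75 TPM in litter 3. The Msx1-low library was higher in litters 1 and 3, by 1.98-fold and 3.67-fold, and lower in litter 2, at 0.901 times its littermate. The authors' deposited table lists Sox17 at 0.90 ± 0.74 (adjusted p = 1.00), from a mean of 23.4 normalised counts.

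By mean level over the 6 libraries the order was Cdh5 at 26.7 TPM, Emcn at 17.0, Sox18 at 16.6, Pecam1 at 15.4, Kdr at 10.68, Cldn5 at 5.68, Flt1 at 4.86, Tek at 3.14, Adgrl4 at 1.87 and Sox17 at 1.85 TPM. Emcn, Sox18 and Pecam1 overlapped in their ranges, as did Pecam1 with Kdr, Cldn5 with Flt1, Flt1 with Tek, Tek with Adgrl4, and Adgrl4 with Sox17. Cdh5 was apart from its neighbour, and so was Kdr from Cldn5.

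Adgrl4 (formerly Eltd1) encodes an adhesion G protein-coupled receptor of endothelium that takes part in vessel growth (chromosome 3, 151437887 to 151545086, plus strand). In litter 1 it was at 4.32 TPM in the labelled mutant and 0.585 TPM in the labelled control. The order of the labels was opposite in the other litters, at 0.686 and 1.78 TPM for litter 2 and 0.453 and 3.38 TPM for litter 3, labelled mutant first. The 3 Msx1-low libraries did not overlap the 3 Msx1-high ones. As for Cldn5 and Sox18, how common such a separation is among all tested genes was not counted. Within litters the Msx1-low library was 7.38-fold, 2.60-fold and 7.47-fold higher, or 1.75, 0.72 and 1.59 higher in log2(TPM + 1).

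Adgrl4 reached 1 TPM in 3 libraries only, the Msx1-low ones, and passed the filter of at least 1 TPM in at least 3 libraries through them. Its coefficient of variation was 87.5%, against a median of 28.9% among 1919 tested genes with a mean of 1 to 3 TPM, and 3.18% of those genes varied more. Given how Adgrl4 passed the filter, that comparison is a description and lends it no support. The authors' deposited table gives a base mean of 43.4 normalised counts for Adgrl4. Scaled to each library by its TPM, that corresponds to about 41.4 to 100.4 normalised counts in the Msx1-low libraries and 10.5 to 15.9 in the Msx1-high ones, an approximation that holds the effective transcript length constant.

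As a share of the other 9 markers, Adgrl4 was 4.34% in the labelled mutant and 0.598% in the labelled control of litter 1, 0.705% and 1.73% for litter 2 and 0.419% and 3.18% for litter 3. The summed TPM of the 9 in the Msx1-low library was 1.02, 1.06 and 0.984 times that of its littermate in litters 1, 2 and 3. The red blood cell share of the Msx1-low library was 3.19, 1.23 and 0.856 times that of its littermate in litters 1, 2 and 3. Adgrl4 was 7.38-fold, 2.60-fold and 7.47-fold higher in the same libraries. All 13 red blood cell genes are positive in the authors' deposited table, as Adgrl4 is, with a median of 0.54. Over all genes there, 7388 of 14572 are positive. Of the 13, 3 were higher in the Msx1-low library of all 3 litters, a larger share than the 1314 of 12152 tested genes. The part of blood content in the Adgrl4 level was not tested. The mural cell share was 0.720, 0.918 and 1.20 times the littermate's.

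**Figure D3:**
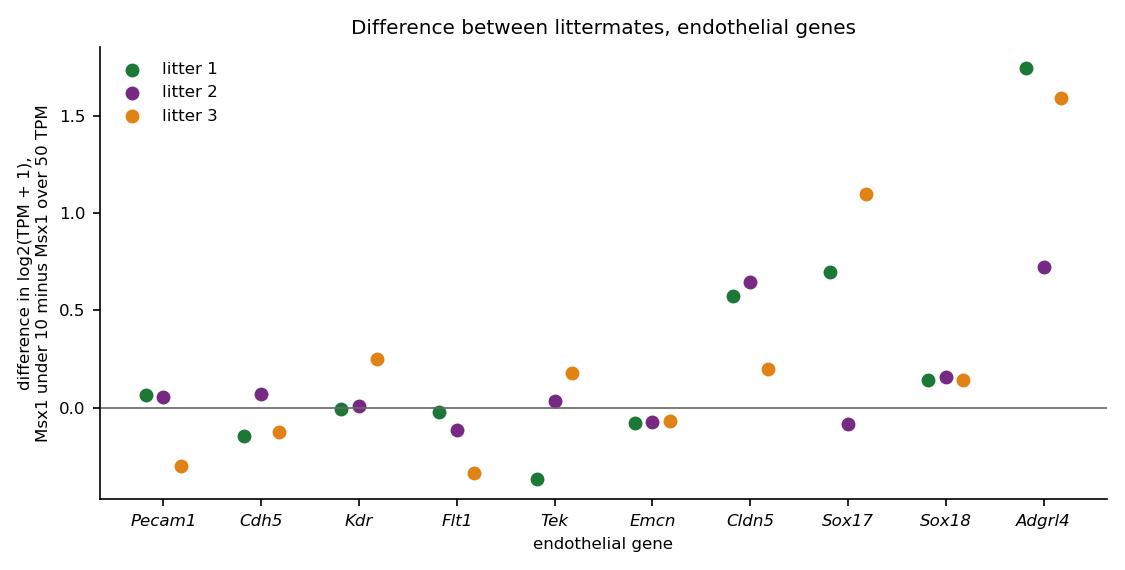
Difference in log2(TPM + 1) between the library with Msx1 under 10 TPM and its littermate with Msx1 over 50 TPM (vertical axis) for each endothelial gene, with 1 point per litter. Adgrl4 is at 0.72 to 1.75, Cldn5 and Sox18 are above 0 in all 3 litters, Sox17 spans -0.08 to 1.10, and the other markers scatter between -0.36 and 0.25.

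Within litters, 5 of the 10 markers kept one direction in all 3, with the Msx1-low library higher for Adgrl4, Cldn5 and Sox18 and lower for Flt1 and Emcn. Of the 12152 tested genes, 22.7% kept one direction, 1314 of them higher and 1443 lower in the Msx1-low libraries. A rise of at least 2-fold in all 3 litters was met by Adgrl4 alone among the members, and by 8 of all tested genes (0.0658%). Another 8 (0.0658%), Msx1 among them, were at least 2-fold lower in all 3, and no member was. Adgrl4 entered the tested genes through its Msx1-low libraries, so these shares are a description and lend it no support. The other 7 higher genes were Kcp, Cttnbp2, Spock1, Kel, Icam4, Nfe2 and the predicted gene Gm16253, of which Kel, Icam4 and Nfe2 are genes of the red blood cell lineage. These genes were named after their values were seen.

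In the authors' deposited table, which compares mutant and control without stating the direction, Msx1 is negative, at -5.19. By the labels, Msx1 averaged 51.3 TPM in mutant and 29.6 TPM in control libraries, a limma log2 difference of 1.41 ± 1.95 (SE; adjusted p = 0.887). A difference as large as 5.19 does not follow from the labels in either direction. The authors' comparison and the label comparison below therefore do not group the 6 libraries alike. A positive value there is read as a higher level where Msx1 was lower. For Adgrl4 the authors' deposited table gives 2.38 ± 0.57 (adjusted p = 0.0352). It was the only 1 of the 10 members past an adjusted p of 0.05, against 0.0961% of the 14572 genes with an adjusted p. Because the members were chosen with earlier results of these data known, that comparison is a description and lends no support. The other 9 members of the authors' deposited table lie between -0.19 ± 0.23 for Flt1 and 0.90 ± 0.74 for Sox17, with 5 negative and 4 positive and a median of -0.06, beside a median of 0.003 over all genes. The difference between Adgrl4 and the other markers was not tested. The authors' deposited table and the within-litter values rest on the same libraries. At a threshold of 0.01 the authors' deposited table calls no member.

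**Figure D4:**
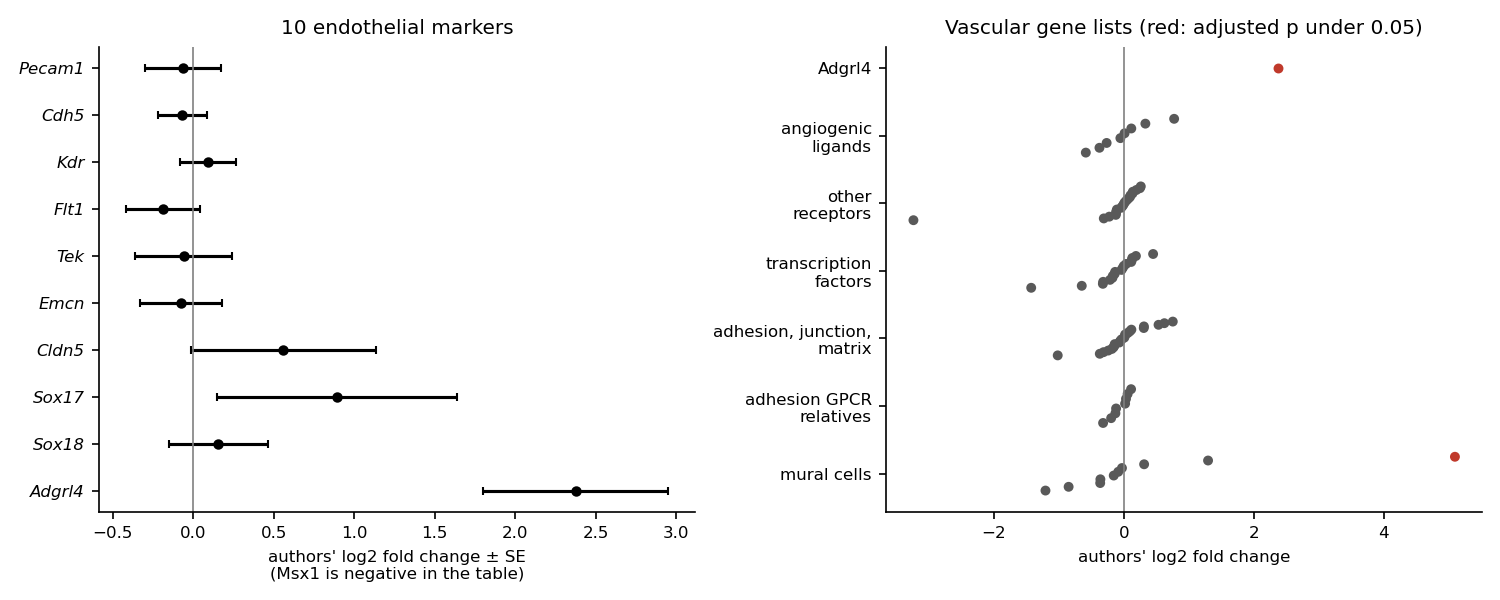
Log2 fold changes from the authors' deposited table, in which Msx1 is negative: on the left the 10 endothelial markers with the table's standard errors as bars, on the right each gene of 6 lists as a point, red where the adjusted p is under 0.05. Adgrl4, at 2.38, stands to the right of the other markers, and the 2 red points are Adgrl4 and the mural cell gene Cspg4, at 5.10.

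Compared by the labels as deposited, no marker was called. With limma on log2(TPM + 1), 0 of the 10 members and 0% of 12152 genes passed an adjusted p of 0.05. An unadjusted p under 0.05 was reached by 817 genes (6.72%) and none of the members. The labels overlapped for all 10 members, against 13.1% of tested genes whose labels did not overlap. The differences, mutant label minus control label, ran from -0.19 ± 0.18 (SE) for Tek to 0.14 ± 0.15 for Flt1, with limma adjusted p from 0.815 to 0.971. Their median was -0.07, beside -0.06 over all genes. For Adgrl4 the libraries labelled mutant averaged 1.82 ± 2.17 TPM (SD, n = 3) and those labelled control 1.92 ± 1.40 TPM (SD, n = 3), with a limma log2 difference of -0.19 ± 0.54 (SE; adjusted p = 0.943). These directions follow labels that Msx1 contradicts in litters 2 and 3.

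The upstream promoter sequences of Adgrl4 and of a pair of other markers, Emcn and Flt1, are shown as the 3 windows that hold an ETS core, chosen after the matches were seen. They are the 250 bases before the transcription start, from RefSeq on GRCm38.p6, where 6 of the 10 members had an entry (Kdr, Flt1, Tek, Emcn, Cldn5 and Adgrl4). Capitals mark AGGAAG, a core bound by ETS factors, or AACAAT, a core bound by SOX factors, on either strand. The windows are chr3:151437632-151437881 (plus strand) for Adgrl4, chr3:137340828-137341077 (plus strand) for Emcn and chr5:147726012-147726261 (minus strand) for Flt1.
Adgrl4: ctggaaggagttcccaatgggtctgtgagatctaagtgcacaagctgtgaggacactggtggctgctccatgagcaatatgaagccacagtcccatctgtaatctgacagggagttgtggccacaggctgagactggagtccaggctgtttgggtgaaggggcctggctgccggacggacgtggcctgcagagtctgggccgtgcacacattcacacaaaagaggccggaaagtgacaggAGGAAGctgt
Emcn: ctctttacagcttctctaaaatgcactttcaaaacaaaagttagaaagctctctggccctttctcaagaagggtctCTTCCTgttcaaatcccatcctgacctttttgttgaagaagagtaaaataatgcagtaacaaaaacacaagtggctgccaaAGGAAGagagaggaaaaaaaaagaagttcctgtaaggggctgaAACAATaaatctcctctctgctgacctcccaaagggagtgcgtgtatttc
Flt1: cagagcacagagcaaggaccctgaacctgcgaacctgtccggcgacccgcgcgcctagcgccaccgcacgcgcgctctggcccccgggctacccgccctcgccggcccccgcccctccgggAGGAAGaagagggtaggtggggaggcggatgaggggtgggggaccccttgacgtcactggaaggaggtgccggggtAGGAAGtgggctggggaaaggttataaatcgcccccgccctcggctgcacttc

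The ETS core was found once in the Adgrl4 window, starting 10 bases before the transcription start, and in 2 places each in the Emcn and Flt1 windows. Over the 6 members it was in 3 windows, and over all 32851 windows of this length in 29.5%. The SOX core was in the Emcn and Tek windows and in 9.42% of all windows. The GATA core AGATAA was in none of the 6 and in 9.99% of all. The 3 motifs do not overlap in the windows shown. A match describes letters only, and says nothing of factor binding.

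Further genes with vascular roles were read from 4 lists of 70 genes (ligands, receptors, transcription factors, and adhesion, junction and matrix genes). Some stood above Cdh5 (mean 26.7 TPM), such as Fli1 at a mean of 79.7 TPM and Ephb4 at 35.8 TPM. The part of other cell types in these levels was not tested. Of the 70 genes, 65 were tested between the labels, and the authors' deposited table adjusts the p of 68. None was called in the authors' deposited table or by limma between the labels. The authors' deposited table has 33 positive and 35 negative values among these. Their median is -0.02. Of the 68, 3 have an unadjusted p under 0.05 there, a larger share than the 2.22% of all its genes. The lists were chosen with earlier results of these data known, and these shares were not compared by a test. Within litters, 20 of the 65 kept one direction in all 3, a larger share than the 22.7% of all tested genes. In the Msx1-low library 6 were higher and 14 lower, beside 1314 higher and 1443 lower of all 12152 tested genes. The share that was lower thus exceeded that of all tested genes, and the share that was higher did not. These shares were not compared by a test, and none of the 65 was 2-fold higher in all 3 litters.

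Among 8 angiogenic ligand genes, 4 were positive and 4 negative in the authors' deposited table. Vegfa, the principal growth signal for endothelium, was at 15.5 and 22.5 TPM in litter 1, 12.2 and 13.1 TPM in litter 2, and 19.1 and 14.9 TPM in litter 3, labelled mutant first. The authors' deposited table has it at -0.26 ± 0.20, and Apln, the ligand of the apelin receptor made by sprouting tip cells, at -0.58 ± 0.49 (both with adjusted p = 1.00).

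Of 20 further receptor genes, 11 were positive and 9 negative in the authors' deposited table. Ramp2, a partner of the adrenomedullin receptor in vessels, was listed at 0 in the labelled mutant of litter 1, and was at 9.46 TPM in its littermate. Levels were 20.1 and 18.2 TPM for litter 2 and 21.6 and 2.75 TPM for litter 3, labelled mutant first. Its receptor partner Calcrl kept to 2.72 to 3.50 TPM. The authors' deposited table lists Ramp2 at -3.24 ± 1.67 (adjusted p = 1.00), and Notch1, a receptor of arterial fate, at 0.25 ± 0.17 (adjusted p = 1.00).

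Transcription factors of endothelium had 7 positive and 11 negative values among 18 genes in the authors' deposited table. The ETS factor gene Erg, which maintains endothelial identity, was at 5.12 to 7.58 TPM, and lower in the Msx1-low library in each litter. Hey2, a Notch target of arteries, and Prox1, the lymphatic regulator, had the smallest p of that list, at -1.42 ± 0.86 and -0.65 ± 0.42 in the authors' deposited table (adjusted p = 1.00 for both).

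The adhesion, junction and matrix list had 11 positive and 11 negative values in the authors' deposited table. Its genes with the smallest p are Efnb2, an ephrin ligand gene, and Gja5, a gap junction connexin gene. Efnb2 was at 27.7 and 37.7 TPM in litter 1, 35.3 and 25.3 TPM in litter 2, and 37.9 and 33.4 TPM in litter 3, labelled mutant first, so that the Msx1-low library was the lower in every litter. The authors' deposited table has Efnb2 at -0.37 ± 0.13 (unadjusted p = 0.00446; adjusted p = 1.00). Efnb2 is also expressed outside vessels.

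Gja5 was at 2.74 and 3.59 TPM in litter 1, 7.69 and 2.88 TPM in litter 2, and 7.31 and 3.10 TPM in litter 3, again lower in each Msx1-low library. Its Msx1-low libraries, at 2.74 to 3.10 TPM, all stood below the Msx1-high ones, at 3.59 to 7.69 TPM. Efnb2 and Erg separated in the same direction, opposite to Adgrl4, Cldn5 and Sox18. How many of all tested genes do so was not counted. The authors' deposited table has Gja5 at -1.02 ± 0.39 (unadjusted p = 0.00849; adjusted p = 1.00). The third gene with an unadjusted p under 0.05 in the authors' deposited table, Mcam, an adhesion molecule of endothelium and pericytes, was at 0.63 ± 0.32.

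The relatives of Adgrl4 among adhesion G protein-coupled receptors were read the same way. Of 8 such genes, 4 were positive and 4 negative in the authors' deposited table, and none was called. Adgrf5, itself an endothelial gene, was at 6.60 to 13.4 TPM and lower in each Msx1-low library, at -0.32 ± 0.20 in the authors' deposited table (adjusted p = 1.00). Adgrl2, a latrophilin gene, was at 47.6 to 62.0 TPM and at -0.12 ± 0.12 in the authors' deposited table (adjusted p = 1.00).

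Around the vessels, 1 of 10 mural cell genes was called in the authors' deposited table, against 0.0961% of all its genes with an adjusted p. That list too was chosen with earlier results of these data known, so the comparison is a description only. Of the 10, 3 were positive and 7 negative, with a median of -0.12. The gene called was Cspg4, the NG2 proteoglycan of pericytes, with an adjusted p of 0.00544. It was listed at 0 in the Msx1-high libraries of litters 2 and 3 and reached at most 1.07 TPM in any library, so its fold change is no measure of size. Among the other pericyte genes, Pdgfrb was at 23.5 to 28.9 TPM, and Rgs5 at 12.4 to 22.9 TPM with -0.36 ± 0.18 (adjusted p = 1.00) in the authors' deposited table.

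The genes nearest in profile to Adgrl4 were looked for among 11652 genes with a mean of at least 1 TPM. The measure was the root mean square distance between centred log2(TPM + 1) profiles over the 6 libraries. The profiles were not scaled, so the distance depends on how widely a gene varies as well as on its order over the libraries. The nearest were Pms2, Cmklr1, Kcp, Ctu2 and C1qtnf4, at distances of 0.27, 0.30, 0.30, 0.34 and 0.34. Kcp was at 3.22 to 4.62 TPM in the Msx1-low libraries and 0.272 to 0.783 TPM in the Msx1-high ones. Cmklr1 was at 1.63 to 4.21 TPM against 0.510 to 1.55 TPM, and C1qtnf4 at 1.35 to 2.94 TPM against 0.676 to 1.32 TPM, so neither overlapped, although both were close in litter 2. Pms2, a mismatch repair gene, was at 8.09 and 1.41 TPM in litter 1, 2.40 and 2.22 TPM in litter 2, and 0.933 and 4.47 TPM in litter 3, labelled mutant first, so it did not separate them in litter 2, and nor did Ctu2, at 5.07 TPM in the Msx1-low library and 5.30 TPM in its littermate. Genes picked for likeness to Adgrl4 resemble its profile by that choice, so their values lend it no support. Among the endothelial markers Sox17 was the nearest to Adgrl4, at rank 25 (distance 0.42), followed by Cldn5 at rank 271 (distance 0.58). The other 7 ranked from 1649 to 8754. Sox17 and Cldn5 also had the widest log2 ranges of these markers, at 1.33 and 0.77. Sox18, higher in each Msx1-low library, had a range of 0.21 and was at rank 1649.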

How the data were processed

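For each library the authors deposited 1 TPM value per gene (21827 genes), and Salmon 1.5.2, DESeq2 and mm10 are named, with no role or setting, per the submitters' processing notes. The annotation release and any filters were not given in the sources used here. Listed TPM summed to 716208 to 735601 per library. TPM keep no record of depth, so precision is judged from the spread between embryos.

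Per the file headers, the authors' deposited table holds a base mean (a signal, in DESeq2 output the mean normalised count), the log2 fold change with standard error, the Wald score and the unadjusted and adjusted p-value. Its model and direction are not stated.

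Labels were compared with limma 3.58.1 (R 4.3.3; variance trend, robust) on log2(TPM + 1), without a block, for the 12152 genes that reached 1 TPM in 3 or more libraries, adjusted by Benjamini-Hochberg over all of them at 0.05 and checked on simulated data. Such a fold change understates that of low genes. Per the series' design text, littermates of both genotypes were taken from each litter, which pairs the libraries. Deviations from the label means correlated at -0.05, -0.03 and -0.03 between littermates over the tested genes. Coordinates are from GENCODE M21 (GRCm38).

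The members and lists were chosen with earlier results of these data known. Named genes are the members, Msx1, Msx2 and Hand2, genes called, the 2 genes of each vascular, receptor-relative and mural list with the smallest p in the authors' deposited table, and the 5 nearest to Adgrl4 in profile; those nearest to the mean of the other markers are not reported here. Others (Erg, Calcrl, Mcam, Pdgfrb and the 2-fold genes) were added after their values were seen. Alternatives were another pseudocount, other filters and scalings, limma without trend, litter as a block and leaving out each library.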

Additional observations from a re-analysis of the deposited data

How the results depend on the processing

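The depth of each library is unknown, and Adgrl4, Sox17 and Cldn5 rest on the lowest mean normalised counts of the members. Between the labels, 0 members were called under every setting run, and 0 genes were higher or lower except when 1 library was left out, with 0 to 1 higher (1 without the labelled control of litter 1) and 0 to 1 lower (1 without the labelled mutant of litter 1). The replicate block (litter as a term) gave 0 genes higher, 0 lower and 0 members, and changed no call. The uncalled difference of Cdh5 turned to 0.039 and 0.034, and that of Sox18 to 0.015 and 0.018, with median-of-ratios scaling and quantile normalization, which moved the median of all genes from -0.06 to 0.002 and -0.008. Genes with an unadjusted p under 0.05 split 231 higher and 586 lower as deposited, and 410 and 305 after median-of-ratios scaling.

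Leaving out each library gave differences of -0.11 to 0.24 for Pecam1, -0.098 to 0.0059 for Cdh5, -0.15 to 0.026 for Kdr, 0.031 to 0.22 for Flt1, -0.29 to -0.072 for Tek, -0.071 to 0.11 for Emcn, -0.27 to 0.11 for Cldn5, -0.48 to 0.18 for Sox17, -0.11 to -0.0095 for Sox18 and -0.78 to 0.16 for Adgrl4, none called. The median of the members ran from -0.09 to 0.009. The log2 ratio between the label means of Adgrl4 relative to the other markers was -0.01 and ran from -1.71 (without the labelled mutant of litter 1) to 0.65 (without the labelled control of litter 3). That of the endothelial share was -0.02 and ran from -0.06 to 0.02.

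The following alternatives were chosen after seeing the data. With a pseudocount of 0.1 the Adgrl4 differences in litters 1, 2 and 3 were 2.69, 1.26 and 2.66, against 1.75, 0.72 and 1.59, because a smaller pseudocount compresses low values less. In the authors' deposited table, an adjusted p of 0.01 left 7 of its 14 calls and 0 members. Adjusting over all 17605 genes with a p-value kept Adgrl4, at an adjusted p of 0.0425.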
